A study of Mus musculus with 18 samples.

Results

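The data described here set the effect of removing Vhl and Hif1a from mouse alveolar macrophages against the effect of removing Vhl, Hif1a and Hif2a, gene by gene. Each effect was the log2 fold change of a knockout against the control of its own cross. The difference of effects, also called the interaction, was the Vhl/Hif1a knockout effect minus the triple knockout effect. It addresses which part of the response to losing Vhl and Hif1a is absent when Hif2a, gene symbol Epas1, is lost as well. All autosomal genes with enough reads were members, 12471 of the 30748 autosomal genes and of the 32789 genes in the table. No measured value of an effect chose them. The filter asked for enough reads in only as many libraries as a group holds. A gene could therefore pass only through the group where it was high. Cells came from bronchoalveolar lavage and were enriched with magnetic beads against CD11c. The Vhl/Hif1a knockout mice carried CD11c-Cre with conditional alleles of Vhl and Hif1a, and their controls were labelled as carrying the same floxed alleles. The triple knockout mice carried CD11c-Cre with conditional alleles of Vhl, Hif1a and Hif2a, and the triple controls were labelled as carrying those floxed alleles. Another cross, of Vhl and Hif2a with its own floxed controls, entered the model and is quoted for comparison. Each group had 3 libraries of polyA RNA. The labels name no Cre for the controls and give neither strain, age nor sex. CD11c-Cre acts in CD11c-positive cells generally, so dendritic cells of these mice can be recombined too. The labels do not say whether libraries of a group came from separate animals, so each p-value measures only the spread between these libraries.

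Hypoxia-inducible factors (HIFs) are pairs of an oxygen-regulated alpha subunit, HIF-1α or HIF-2α, and the stable partner encoded by Arnt. In the presence of oxygen the alpha subunits are hydroxylated by prolyl hydroxylases such as those encoded by Egln1 and Egln3, bound by the VHL protein and degraded. Loss of Vhl therefore leaves the alpha subunits in place at normal oxygen, and glycolytic genes are textbook targets of HIF-1α. Alveolar macrophages live in the air space, clear surfactant lipid and inhaled particles, and at rest carry little of the major histocompatibility complex (MHC) class II machinery that presents antigen to T cells.

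The libraries held 25851000 to 27050000 counts in the Vhl/Hif1a knockout group, 22339000 to 25056000 in its control group, 28090000 to 30962000 in the triple knockout group and 24728000 to 30664000 in the triple control group. Alveolar macrophage markers were high in all 12 libraries, for example the lectin gene Siglecf at 419 to 584 CPM (counts scaled to library size) and the scavenger receptor gene Marco at 569 to 849 CPM. Triple control 2 stood apart: mitochondrial transcripts made up 0.725% of its counts, against 1.79% to 3.14% in the other 11 libraries of these crosses. Vhl/Hif1a knockout 3 deviated from its group in a similar way (Pearson r = 0.721 across 9289 genes, which are not independent replicates), and Vhl/Hif1a control 3 had raised levels of some genes called below. The crosses also differed in sex-linked transcripts, with Xist at 313 to 461 CPM and Ddx3y at no more than 0.0881 CPM in the Vhl/Hif1a cross, and Xist at 0.229 to 0.377 CPM and Ddx3y at 47.3 to 110.1 CPM in the triple cross. Cross and sex thus cannot be told apart, although each knockout was set against controls of its own cross. In bulk RNA, fewer cells of a type and less RNA per cell cannot be told apart either.

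Start-site windows of 7 genes that carry the comparison are shown, taken from RefSeq (build GRCm38.p6, 250 bases before to 50 bases after the annotated start, written 5′ to 3′ along the gene). In the first 4, genes that were higher in Vhl/Hif1a knockout cells and not in triple knockout cells, capitals mark the core letters of HIF binding sites, ACGTG or GCGTG on either strand, so that CACGT and CACGC are the same letters on the reverse strand. Ankrd37 (chr8:45999801-46000100, minus strand) encodes a small ankyrin repeat protein, Bnip3 (chr7:138909457-138909756, minus strand) a mitophagy receptor, Slc2a1 (chr4:119108495-119108794, plus strand) the glucose transporter GLUT1 and C3ar1 (chr6:122856108-122856407, minus strand) the receptor for complement fragment C3a.
Ankrd37: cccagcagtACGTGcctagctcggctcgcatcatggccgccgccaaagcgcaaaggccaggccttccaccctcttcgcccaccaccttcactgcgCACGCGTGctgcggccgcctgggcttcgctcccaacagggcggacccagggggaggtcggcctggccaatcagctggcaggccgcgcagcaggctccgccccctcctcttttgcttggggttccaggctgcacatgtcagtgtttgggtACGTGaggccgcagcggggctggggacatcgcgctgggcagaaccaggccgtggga
Bnip3: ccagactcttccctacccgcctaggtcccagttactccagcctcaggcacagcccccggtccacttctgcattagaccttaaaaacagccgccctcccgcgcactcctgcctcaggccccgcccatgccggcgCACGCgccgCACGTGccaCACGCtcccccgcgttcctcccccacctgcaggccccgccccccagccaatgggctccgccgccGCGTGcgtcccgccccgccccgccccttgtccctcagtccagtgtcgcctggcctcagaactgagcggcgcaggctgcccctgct
Slc2a1: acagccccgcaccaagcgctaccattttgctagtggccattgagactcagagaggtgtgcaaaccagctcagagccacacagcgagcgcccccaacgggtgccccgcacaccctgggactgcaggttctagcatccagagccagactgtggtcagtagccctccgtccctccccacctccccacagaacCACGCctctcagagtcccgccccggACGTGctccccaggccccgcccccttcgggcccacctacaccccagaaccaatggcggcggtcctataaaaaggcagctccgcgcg
C3ar1: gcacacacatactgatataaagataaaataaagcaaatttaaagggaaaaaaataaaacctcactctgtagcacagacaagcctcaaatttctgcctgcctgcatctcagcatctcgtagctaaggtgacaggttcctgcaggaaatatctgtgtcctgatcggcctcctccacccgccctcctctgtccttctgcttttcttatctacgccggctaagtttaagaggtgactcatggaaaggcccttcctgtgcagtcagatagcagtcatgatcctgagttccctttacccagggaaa
The windows held 4 such matches in Ankrd37, 5 in Bnip3, 2 in Slc2a1 and 0 in C3ar1, where matches may overlap. In the window of Ankrd37 matches started 241 bases and 6 bases before the annotated start, written -241 and -6 in the table of matches, and in that of Slc2a1 one started at -36. The RefSeq window of Ankrd37 lies inside the gene as GENCODE M21 places it (45996902 to 46005707), so the start differs between these sources. The other 3 windows belong to MHC class II genes, H2-Aa (chr17:34287774-34288073, minus strand), H2-Eb1 (chr17:34305617-34305916, plus strand) and H2-DMb1 (chr17:34152941-34153240, plus strand). Capitals mark CCAAT or its reverse ATTGG, the letters of the Y box, one of the elements that class II promoters share.
H2-Aa: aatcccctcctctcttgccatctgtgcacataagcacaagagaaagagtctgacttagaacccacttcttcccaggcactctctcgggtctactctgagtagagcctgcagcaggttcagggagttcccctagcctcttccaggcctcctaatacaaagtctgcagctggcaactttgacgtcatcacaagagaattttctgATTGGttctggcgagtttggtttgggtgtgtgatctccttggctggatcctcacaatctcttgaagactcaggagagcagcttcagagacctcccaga
H2-Eb1: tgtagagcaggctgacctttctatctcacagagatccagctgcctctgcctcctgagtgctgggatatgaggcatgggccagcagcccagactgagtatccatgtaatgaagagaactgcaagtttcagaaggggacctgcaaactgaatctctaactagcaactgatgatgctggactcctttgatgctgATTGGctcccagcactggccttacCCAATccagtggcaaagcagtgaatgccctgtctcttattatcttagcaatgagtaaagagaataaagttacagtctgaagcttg
H2-DMb1: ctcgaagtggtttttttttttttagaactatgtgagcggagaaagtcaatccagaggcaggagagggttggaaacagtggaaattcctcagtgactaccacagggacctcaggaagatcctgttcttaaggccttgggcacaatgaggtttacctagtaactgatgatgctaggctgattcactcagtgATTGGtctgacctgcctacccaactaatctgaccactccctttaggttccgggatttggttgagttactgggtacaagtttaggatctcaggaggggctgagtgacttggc
These matched once in H2-Aa, at -48, 2 times in H2-Eb1 and once in H2-DMb1. Such short letters are common. A HIF core was found in 46.7% of all 27025 windows, in 66.9% of the 9617 windows of autosomal genes tested, in 64.6% of 147 windows of genes with a higher effect in the Vhl/Hif1a cross and in 40% of 55 windows of genes with a lower one. The narrower core ACGTG was found in 21.8%, 29.3%, 36.7% and 14.5% of the same 4 sets, and CCAAT in 41.1%, 42.9%, 42.9% and 40%. A match is a description of letters, not of binding.

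The effect of the knockout differed between the crosses for 254 genes, 2.04% of the 12471 tested (edgeR's quasi-likelihood test, Benjamini-Hochberg adjusted p under 0.05). For 187 of them (1.50%) the Vhl/Hif1a effect was above the triple effect, and for 67 (0.537%) it was below. The median difference was 1.24 on the log2 scale among the 187 and -0.93 among the 67, against 0.0049 over all autosomal genes tested. The higher genes had a median Vhl/Hif1a effect of 1.05 and a median triple effect of -0.23, and the lower genes had -0.79 and 0.12. Among the higher genes 125 differed by more than 2-fold, and among the lower genes 27 did.

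Most of these genes passed the test in the Vhl/Hif1a cross and not in the triple cross. The Vhl/Hif1a knockout changed 456 genes (3.66%), of which 276 (2.21%) rose and 180 (1.44%) fell. The triple knockout changed 5 (0.0401%): Vhl, Plcb4, Itgax, Itgam and Pagr1a, with 1449 genes at an unadjusted p under 0.05 and 13 called by DESeq2. Of the 187 higher genes 169 were called in the Vhl/Hif1a effect alone and 18 in neither effect. Of the 67 lower genes 56 were called in the Vhl/Hif1a effect alone, 2 in the triple effect alone, 1 in both and 8 in neither. Of the 456 genes changed by the Vhl/Hif1a knockout, 226 also passed the test of the difference. The other 230, of which 106 rose and 124 fell, did not, so that a smaller effect in the triple knockout was not shown for them. The difference and both effects are computed from the same 12 libraries, so these counts are a breakdown and no independent evidence.

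The knockouts and the controls were also compared directly. Between the knockouts 1654 genes differed (13.3%). Between the controls 672 genes differed (5.39%), 43 of the 254 among them, and for 25 of those the control difference added to the difference of effects. Of genes named below, the 43 include Cited4, Pgam1, Pfkl, Ndrg1, P4ha1, Ece1, Apoe, Fabp4, Ctsk, Clec4n and Plcb4. All 3 Vhl/Hif1a knockout libraries lay above the other 9 libraries for 146 of the 187 higher genes, where 4.75% of all genes did so. They lay below the other 9 for 46 of the 67 lower genes, where 4.67% of all genes did. The genes were called from these same libraries, so such a separation was largely built in and is no independent evidence. Leaving out 1 library at a time gave 157 to 393 genes. The lowest count came without Vhl/Hif1a knockout 3. The highest came without triple control 3. With triple control 2, Vhl/Hif1a knockout 3 and Vhl/Hif1a control 3 all left out, 189 genes were called, 159 of them among the 254 and in the same direction.

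**Figure D1:**
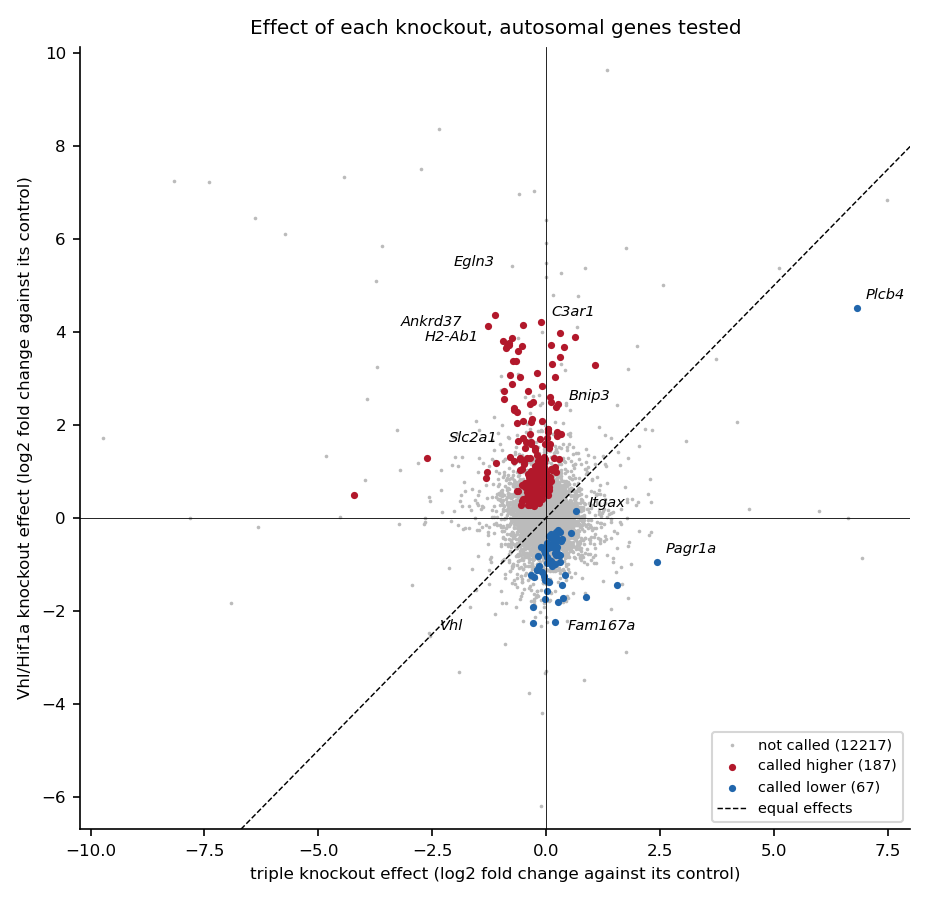
Each point is 1 autosomal gene, with its log2 fold change in the triple knockout on the horizontal axis and in the Vhl/Hif1a knockout on the vertical axis, each against its own control. Red marks the 187 genes and blue the 67 genes whose effects differed, grey the 12217 that did not pass the test, and the dashed line equal effects; most coloured genes spread along the vertical axis and stay near 0 on the horizontal one.

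The targeted genes were read first. Vhl (chromosome 6, 113623959 to 113631633, GENCODE M21 positions on GRCm38 here and below) had 2.93, 3.09 and 2.62 CPM in the Vhl/Hif1a knockout libraries, against 18.7, 18.9 and 13.2 CPM in their controls. It had 1.96, 2.10 and 2.53 CPM in the triple knockout libraries, against 12.3, 12.2 and 14.3 CPM in theirs. The groups did not overlap in either cross, and Vhl fell by 2.55 on the log2 scale in the Vhl/Hif1a cross and by 2.56 in the triple cross, a difference of 0.01 ± 0.20 (SE, edgeR adjusted p = 0.989). Hif1a had 206, 209 and 166 CPM in Vhl/Hif1a knockout libraries and 230.2, 225 and 232 CPM in controls, and 236, 241 and 239 CPM in triple knockout libraries and 251, 137 and 238 CPM in controls. Neither change passed the test (edgeR adjusted p = 0.662 and 0.565). Epas1 had 38.4, 30.6 and 33.7 CPM in triple knockout libraries and 37.2, 51.4 and 32.6 CPM in controls (edgeR adjusted p = 0.513). Counts over a whole gene include exons outside a deleted part, so these counts check Vhl and leave the loss of Hif1a and Epas1 unchecked. In the third cross Hif1a had 58.7, 78.6 and 61.6 CPM in libraries labelled Vhl/Hif2a knockout, against 242, 179 and 231 CPM in their controls, and fell by 1.71 on the log2 scale (edgeR adjusted p = 4.3e-06). Epas1 rose there, with 48.0, 56.1 and 58.6 CPM in libraries labelled Vhl/Hif2a knockout, against 35.1, 23.2 and 24.7 CPM in their controls (0.97 ± 0.19 SE, edgeR adjusted p = 0.00187). Epas1 had 36.8, 60.4 and 46.5 CPM in Vhl/Hif1a knockout libraries and 35.9, 33.2 and 35.1 CPM in controls (edgeR adjusted p = 0.261). The transcript of Hif1a was thus low in the knockout whose labels name Hif2a, and was not shown to change in either knockout whose labels name Hif1a. Directions drawn from the third cross rest on its labels.

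MHC class II genes were the list with the highest share of called members. Among all autosomal genes tested, 1.50% had a higher effect in the Vhl/Hif1a cross and 0.537% a lower one, and these shares stand beside each list count below. Of 16 measured members, 8 had a higher effect in the Vhl/Hif1a cross and 0 a lower one, and the median difference was 1.09. The same 8 rose in Vhl/Hif1a knockout cells, and 0 changed in triple knockout cells. They were the class II subunit genes H2-Ab1, H2-Aa and H2-Eb1, the invariant chain gene Cd74, the master transactivator gene Ciita, the peptide editor subunit gene H2-DMb1 and the editor's modulators H2-Oa and H2-Ob. Ciita (chromosome 16, 10480059 to 10528418) had 87.5, 98.3 and 122 CPM in Vhl/Hif1a knockout libraries, against 6.63, 6.39 and 12.5 CPM in controls, and 5.94, 5.57 and 5.71 CPM in triple knockout libraries, against 5.59, 8.61 and 12.3 CPM in theirs. The 3 Vhl/Hif1a knockout libraries were all far above the other 9. The Vhl/Hif1a effect was 3.59 and the triple effect -0.62, a difference of 4.20 ± 0.41 (SE, edgeR adjusted p = 1.9e-05).

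The structural class II genes had the same pattern. H2-Ab1 (chromosome 17, 34257689 to 34269419) had 1024, 1229.9 and 1483 CPM in Vhl/Hif1a knockout libraries, against 71.9, 54.8 and 142 CPM in controls. It had 53.3, 70.1 and 49.7 CPM in triple knockout libraries, against 73.1, 140.1 and 119 CPM in theirs. Control 3 of the Vhl/Hif1a cross was the highest of its group and still far below each knockout library, while in the triple cross each knockout library lay below each control. The difference of effects was 4.74 ± 0.50 (SE, edgeR adjusted p = 2.7e-05). Cd74 (chromosome 18) had 4261, 5245 and 5537 CPM in Vhl/Hif1a knockout libraries, against 326, 223 and 610.1 CPM in controls, and 222, 277 and 211 CPM in triple knockout libraries, against 323, 446 and 520.0 CPM in theirs, a difference of 4.56 ± 0.48. For H2-Aa and H2-Eb1, whose windows are printed above, the differences were 4.59 ± 0.51 and 4.52 ± 0.42. The triple effects of these 4 genes lay between -0.94 and -0.81 and none passed the test (edgeR adjusted p = 0.429 for each).

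H2-DMb1 had a smaller difference of 2.17 ± 0.20 (SE, edgeR adjusted p = 1.3e-05), with means of 295 ± 35.5 CPM in Vhl/Hif1a knockout and 84.1 ± 6.13 CPM in control libraries, and 80.6 ± 5.50 CPM in triple knockout and 103 ± 16.8 CPM in triple control libraries (SD, n = 3 each). H2-Oa differed by 1.69 ± 0.39 and H2-Ob by 2.19 ± 0.53 (edgeR adjusted p = 0.0301 and 0.0406). Without 1 library, H2-Oa kept its call in 5 of 12 fits (highest adjusted p 0.103), namely without Vhl/Hif1a knockout 1 or 2, Vhl/Hif1a control 3 or triple control 1 or 3. H2-Ob kept it in 2 of 12 (highest 0.122), without Vhl/Hif1a knockout 1 or Vhl/Hif1a control 3. H2-DMa, the partner of H2-DMb1, had 250.3 ± 31.7 CPM in Vhl/Hif1a knockout and 211 ± 9.86 CPM in control libraries (SD, n = 3 each), and its difference of 0.48 ± 0.19 did not pass (edgeR adjusted p = 0.245). Nor did Ctss, Ifi30 or the regulatory factor genes Rfx5, Rfxap and Rfxank. Class I presentation genes had 2 higher of 23, the non-classical genes H2-M3 (0.67 ± 0.12) and H2-T23 (0.74 ± 0.15), with a list median of 0.15. H2-T23 lost its call in a fit to the 12 libraries of the Vhl/Hif1a and triple crosses (edgeR adjusted p = 0.0526) and with a replicate block within each cross (0.0621).

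Class II transcripts are also made by dendritic cells and B cells. The 16 dendritic cell markers summed to 2001 to 2323 CPM in Vhl/Hif1a knockout, 2190 to 2422 CPM in control, 2295 to 2383 CPM in triple knockout and 2342 to 2752 CPM in triple control libraries, with Sirpa giving most of it. Their members Flt3 and Xcr1 reached at most 3.01 and 0.725 CPM in any of the 12 libraries. Other members were higher, with Irf8 at 96.3 to 165 CPM, Ccl22 at 14.8 to 33.7 CPM and Mreg at 9.35 to 34.2 CPM. Fscn1 and Ccr7 reached at most 18.5 and 10.8 CPM. Of 11 B cell markers, Pax5, Blk and Fcmr were among those at 0 in all 12 libraries, and Cd22 made up nearly all of the summed 155 to 165 CPM in Vhl/Hif1a knockout and 175 to 187 CPM in control libraries. Neither list had a called member. The 16 epithelial markers summed to 167 to 208 CPM in Vhl/Hif1a knockout and 180 to 216 CPM in control libraries, and to 278 to 305 CPM in triple knockout and 327 to 364 CPM in triple control libraries. Most of it was Cdh1, at 104 to 151 CPM in the 12 libraries, and Epcam. Epcam had 24.7 to 41.3 CPM in Vhl/Hif1a knockout and 64.1 to 67.3 CPM in control libraries. It had 157 to 178 CPM in triple knockout and 194 to 240 CPM in triple control libraries. Scgb1a1, Sftpc and Krt8 reached at most 13.4, 0.743 and 0.263 CPM. One epithelial marker, Hopx, was called (difference 1.35 ± 0.33, edgeR adjusted p = 0.0462, kept in 2 of 12 fits without 1 library, those without Vhl/Hif1a control 3 or triple control 1, and at most 0.135 in the others). The 17 T and NK cell markers summed to 193 to 222 CPM in Vhl/Hif1a knockout and 229 to 246 CPM in control libraries, and to 248 to 270.2 CPM in triple knockout and 254 to 271 CPM in triple control libraries. Nearly all of it was Cd2, at 191 to 269 CPM, and Nkg7, Gzmb and Ncr1 were at 0 in all 12. The part of these cells in the results was not tested.

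**Figure D2:**
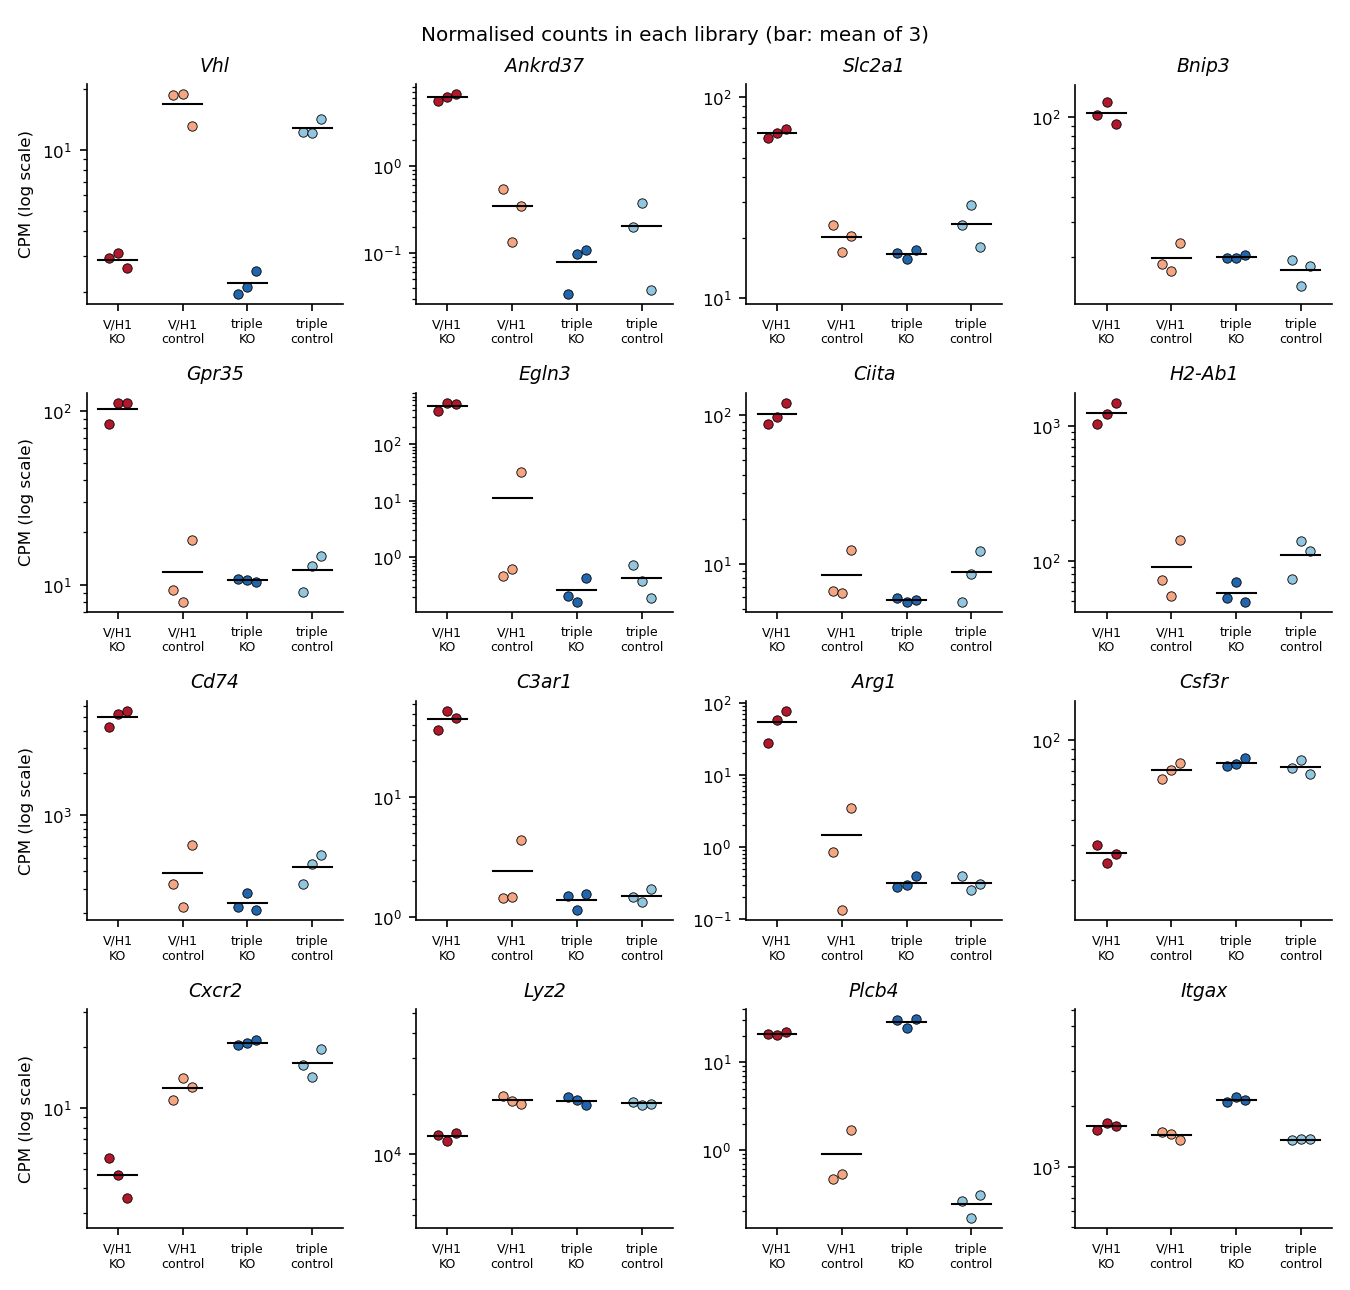
Normalised counts of 16 genes in each of the 12 libraries (CPM, log axes of differing range; V/H1 stands for Vhl/Hif1a, KO for knockout, bars for the mean of 3 libraries). For Ankrd37, Slc2a1, Bnip3, Gpr35, Egln3, Ciita, H2-Ab1, Cd74, C3ar1 and Arg1 the 3 Vhl/Hif1a knockout libraries lie above the other 9, for Csf3r, Cxcr2 and Lyz2 below them, and Plcb4 is high in both knockouts.

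Genes of the hypoxia response were the second large group. Ankrd37 (chromosome 8, 45996902 to 46005707) had 5.48, 6.18 and 6.57 CPM in Vhl/Hif1a knockout libraries, against 0.549, 0.132 and 0.347 CPM in controls, and 0.0343, 0.0971 and 0.107 CPM in triple knockout libraries, against 0.197, 0.374 and 0.0382 CPM in theirs. Every Vhl/Hif1a knockout library stood far above the other 9, and the triple knockout overlapped its controls. The difference of 5.40 ± 0.81 (SE, edgeR adjusted p = 0.00101) was the highest among called genes with a mean of at least 1 CPM. The triple effect of Ankrd37 rests on 7 summed counts in triple knockout and 16 in triple control libraries. Bnip3 (chromosome 7, 138890836 to 138909519) had 102, 119 and 91.5 CPM in Vhl/Hif1a knockout libraries, against 18.6, 17.1 and 23.7 CPM in controls. It had 19.8, 19.9 and 20.7 CPM in triple knockout libraries, against 19.4, 14.4 and 18.2 CPM in theirs, which lie close together. Its difference was 2.18 ± 0.24 (SE, edgeR adjusted p = 4.1e-05). Gpr35 (chromosome 1, 92950865 to 92986391), which encodes a G protein-coupled receptor, had 84.1, 111 and 111 CPM in Vhl/Hif1a knockout libraries, against 9.33, 7.97 and 18.1 CPM in controls, and 10.8, 10.7 and 10.3 CPM in triple knockout libraries, against 9.08, 12.8 and 14.7 CPM in theirs, a difference of 3.31 ± 0.37.

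In all, 6 of 41 measured hypoxia-response genes outside glycolysis had a higher effect in the Vhl/Hif1a cross and 0 a lower one, with a list median of 0.17. Besides Ankrd37, Bnip3 and Gpr35 they were Selenbp1 (1.22 ± 0.16), the stress-response gene Ndrg1 (1.71 ± 0.36) and the MYC antagonist gene Mxi1 (0.54 ± 0.12). Ndrg1 had 6.5 ± 0.545 CPM in Vhl/Hif1a knockout and 2.34 ± 0.731 CPM in control libraries, and 0.736 ± 0.168 CPM in triple knockout and 0.881 ± 0.0650 CPM in triple control libraries (SD, n = 3 each). It lost its call without triple knockout 1 (edgeR adjusted p = 0.0632). Mxi1 lost it without Vhl/Hif1a knockout 2, Vhl/Hif1a control 1 or 2, or triple knockout 2 or 3 (at most 0.0737). Of the 21 HIF subunit, Vhl and oxygen sensor genes 2 were called, Cited4 (2.28 ± 0.46), whose protein binds the coactivators CBP and its paralog, and the prolyl hydroxylase gene Egln1 (0.65 ± 0.14). For Cited4 neither the Vhl/Hif1a effect (0.98, edgeR adjusted p = 0.0577) nor the triple effect (-1.29, 0.429) passed by itself, the controls of the crosses differed by 1.23 (0.0306), and its call was lost with triple control 2, Vhl/Hif1a knockout 3 and Vhl/Hif1a control 3 left out (0.120). Egln1 had 86.2, 89.7 and 92.5 CPM in Vhl/Hif1a knockout libraries, against 60.3, 62.7 and 68.3 CPM in controls, and 60.5, 61.5 and 58.1 CPM in triple knockout libraries, against 58.2, 81.2 and 62.1 CPM in theirs. Its call was lost in 6 of 12 fits without 1 library (at most 0.0702), those without Vhl/Hif1a knockout 2 or 3, Vhl/Hif1a control 1 or 2, or triple knockout 1 or 3. P4ha1, a collagen prolyl hydroxylase gene, was the 1 called of 11 collagen-modifying enzyme genes (0.70 ± 0.18, edgeR adjusted p = 0.0480), and held in 1 of 12 such fits, that without triple control 2 (at most 0.138).

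Glucose transport and glycolysis genes had 7 higher and 0 lower of 29, with a list median of 0.50. Slc2a1 (chromosome 4, 119108711 to 119137983) had 62.7, 66.7 and 69.3 CPM in Vhl/Hif1a knockout libraries, against 23, 16.9 and 20.4 CPM in controls. It had 16.7, 15.7 and 17.4 CPM in triple knockout libraries, against 23.2, 29.2 and 18.1 CPM in theirs. The Vhl/Hif1a knockout libraries were the highest 3 of 12 and the triple knockout libraries lay below each of their controls, giving a difference of 2.22 ± 0.26 (SE, edgeR adjusted p = 8.6e-05). The enzymes followed with smaller differences: 1.24 ± 0.19 for the phosphofructokinase subunit gene Pfkl, 1.22 ± 0.17 for the triosephosphate isomerase gene Tpi1, 1.01 ± 0.13 for Pgam1, 0.92 ± 0.16 for the pyruvate kinase gene Pkm, 0.88 ± 0.18 for Aldoa and 0.71 ± 0.17 for the hexokinase gene Hk1. Tpi1 had 246, 255 and 288 CPM in Vhl/Hif1a knockout libraries, against 118, 115 and 137 CPM in controls, and 121, 124 and 122 CPM in triple knockout libraries, against 124, 157 and 119 CPM in theirs.

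Triple control 2 was the highest control of its cross for these 7 genes, for example for Aldoa at 1658 CPM, against 1140.0 and 1044 CPM in the other 2 triple controls, 999 to 1027 CPM in triple knockout libraries, 1441 to 1699.6 CPM in Vhl/Hif1a knockout libraries and 1018 to 1119 CPM in their controls. For Aldoa it lay within the range of the Vhl/Hif1a knockout libraries. With triple control 2, Vhl/Hif1a knockout 3 and Vhl/Hif1a control 3 left out, 6 glycolysis genes were called and Aldoa differed by 0.61 (edgeR adjusted p = 0.00249), but Hk1 did not pass (0.170). Hk1 held its call in 3 of 12 fits without 1 library, those without Vhl/Hif1a knockout 1 or triple control 1 or 3 (at most 0.116). Without triple control 3 the count in the list was 11. Ldha, the lactate dehydrogenase gene, had 516 ± 34.8 CPM in Vhl/Hif1a knockout and 404 ± 19.2 CPM in control libraries, and 445 ± 14.3 CPM in triple knockout and 481 ± 55.2 CPM in triple control libraries (SD, n = 3 each), and its difference of 0.46 ± 0.12 did not pass (edgeR adjusted p = 0.0731).

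**Figure D3:**
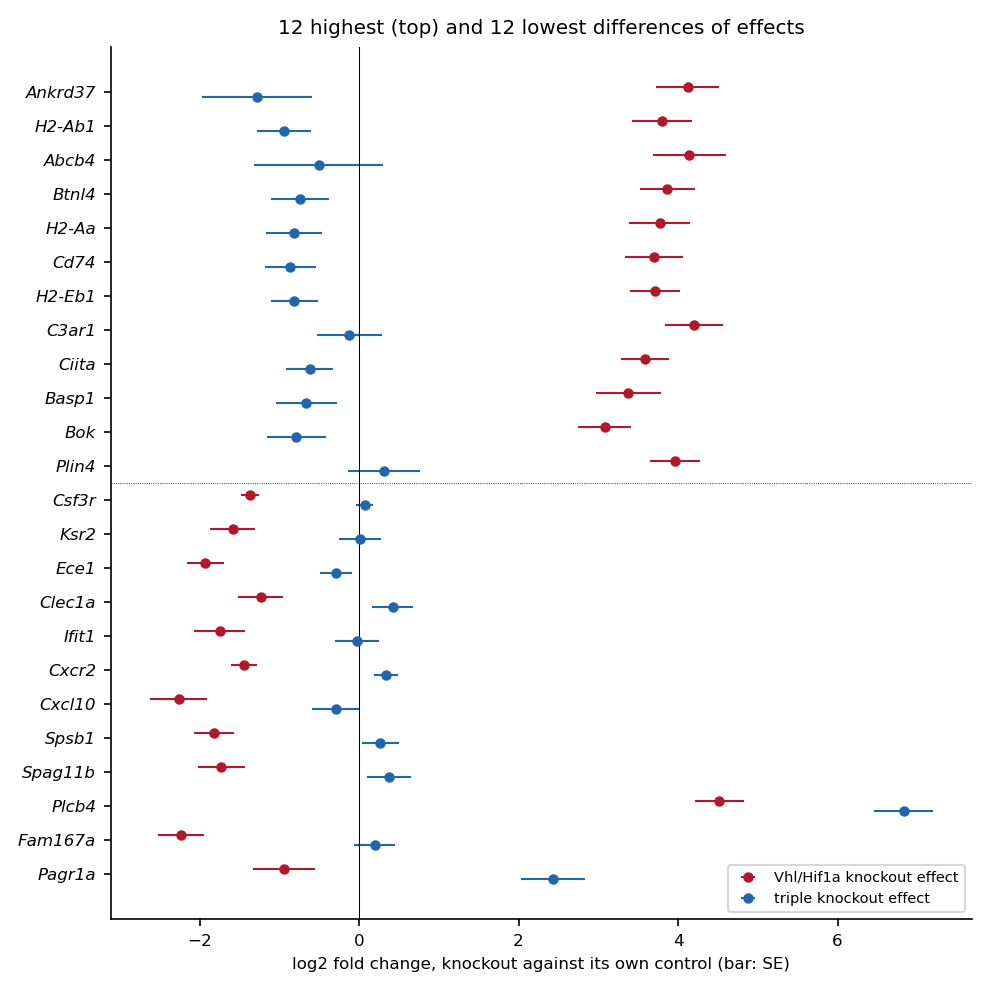
Log2 fold changes of each knockout against its own control for the 12 called genes with the highest and the 12 with the lowest difference of effects, among those with a mean of at least 1 CPM and without predicted gene models (red: Vhl/Hif1a knockout; blue: triple knockout; bars: SE). In the upper 12 the Vhl/Hif1a effects are 3.08 or higher and the triple effects 0.31 or lower, and in the lower 12 the triple effect is the larger one for Plcb4, where both effects are positive, and for Pagr1a.

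Several genes outside these groups were among the 12 highest with a mean of at least 1 CPM. Spsb4, just under that mean and so left out by the rule, had a difference of 5.48 ± 0.80 (SE, edgeR adjusted p = 0.000792), above that of Ankrd37. Its summed counts were 275 in Vhl/Hif1a knockout and 12 in control libraries, and 8 in triple knockout and 16 in triple control libraries. C3ar1 (chromosome 6, 122847138 to 122856161) had 36.5, 52.9 and 45.9 CPM in Vhl/Hif1a knockout libraries, against 1.43, 1.45 and 4.36 CPM in controls, and 1.48, 1.13 and 1.53 CPM in triple knockout libraries, against 1.45, 1.33 and 1.72 CPM in theirs. The Vhl/Hif1a knockout libraries stood apart from all others, a difference of 4.33 ± 0.54 (SE, edgeR adjusted p = 0.00015). The phospholipid transporter gene Abcb4 differed by 4.65 ± 0.97, the butyrophilin-like gene Btnl4 by 4.61 ± 0.50, the membrane-associated Basp1 by 4.04 ± 0.55 and the BCL-2 family gene Bok by 3.86 ± 0.49. Basp1 had 186, 233 and 323 CPM in Vhl/Hif1a knockout libraries, against 20.1, 18.1 and 32.9 CPM in controls, and 29.6, 24.3 and 24.1 CPM in triple knockout libraries, against 26.5, 72.2 and 25.0 CPM in theirs. Triple control 2 was again its highest control, below each Vhl/Hif1a knockout library. Abcb4 had 11.5, 10.1 and 9.70 CPM in Vhl/Hif1a knockout libraries and at most 1.12 CPM in the other 9 of these crosses. It lost its call without triple control 3 (edgeR adjusted p = 0.102). In libraries labelled Vhl/Hif2a knockout, mean CPM was 13.8 for Abcb4, 4.63 for Btnl4, 175 for Basp1 and 22.4 for Bok. Their controls there had means of 0.947, 1.01, 24.0 and 2.13 CPM. Spsb4 had means of 0.220 CPM in that knockout and 0.119 CPM in its controls.

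Lipid genes had 4 higher and 0 lower of 32, with a list median of 0.17. Plin4, which coats lipid droplets, had 6.31, 7.41 and 7.78 CPM in Vhl/Hif1a knockout libraries, against 0.253, 0.485 and 0.617 CPM in controls, and 0.137, 0.162 and 0.50 CPM in triple knockout libraries, against 0.197, 0.208 and 0.229 CPM in theirs, a difference of 3.66 ± 0.58 (SE, edgeR adjusted p = 0.00153). The other 3 were Nr1h3, which encodes the oxysterol receptor LXRα (0.78 ± 0.14), the apolipoprotein gene Apoe (1.29 ± 0.30) and the fatty acid chaperone gene Fabp4 (0.91 ± 0.22). Apoe had 202, 238 and 254 CPM in Vhl/Hif1a knockout libraries, against 110.1, 87.2 and 92.6 CPM in controls, and 33.6, 20.2 and 20.7 CPM in triple knockout libraries, against 20.9, 35.2 and 20.3 CPM in theirs, so the controls of the crosses differed as well. Its call held in 5 of 12 fits without 1 library, those without Vhl/Hif1a knockout 1, Vhl/Hif1a control 1, triple knockout 1 or triple control 1 or 3 (at most 0.109). That of Fabp4 held in 4, those without Vhl/Hif1a knockout 1, Vhl/Hif1a control 1 or triple control 2 or 3 (at most 0.111). Acly, which makes cytosolic acetyl-CoA from citrate, was the 1 higher of 16 fatty acid synthesis genes. It had 835, 936 and 831 CPM in Vhl/Hif1a knockout libraries, against 426, 429.7 and 501 CPM in controls, and 396, 399 and 398 CPM in triple knockout libraries, against 427, 473 and 418 CPM in theirs, a difference of 1.08 ± 0.12 with no overlap of the Vhl/Hif1a groups (edgeR adjusted p = 4.2e-05).

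Coagulation and fibrinolysis genes had 2 higher and 0 lower of 16, with a list median of 0.09. F10, the coagulation factor X gene, had 355, 377 and 396 CPM in Vhl/Hif1a knockout libraries, against 186, 183 and 198 CPM in controls, and 179, 168 and 169 CPM in triple knockout libraries, against 177, 209 and 165 CPM in theirs, a difference of 1.09 ± 0.12 (SE, edgeR adjusted p = 3.3e-05). Slc7a2, which takes up arginine, had 1649, 1994 and 1879 CPM in Vhl/Hif1a knockout libraries, against 825, 921 and 921 CPM in controls, and 891, 758 and 804 CPM in triple knockout libraries, against 810.2, 673 and 786 CPM in theirs, a difference of 0.94 ± 0.15. It was the 1 called of 12 arginine genes.

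Lower effects in the Vhl/Hif1a cross were smaller. The granulocyte colony-stimulating factor receptor gene Csf3r (chromosome 4, 126024550 to 126044440) had 30.1, 24.5 and 27.1 CPM in Vhl/Hif1a knockout libraries, against 63.8, 71.1 and 76.7 CPM in controls. It had 74.3, 75.5 and 80.7 CPM in triple knockout libraries, against 72.8, 79.1 and 67.7 CPM in theirs. The Vhl/Hif1a knockout libraries were the lowest 3 of 12, and the triple knockout overlapped its controls, a difference of -1.44 ± 0.16 (SE, edgeR adjusted p = 3.8e-05). The chemokine receptor gene Cxcr2 (chromosome 1, 74153989 to 74161246) had 5.63, 4.66 and 3.60 CPM in Vhl/Hif1a knockout libraries, against 11, 14.1 and 12.8 CPM in controls, and 20.6, 21.1 and 21.8 CPM in triple knockout libraries, against 16.4, 14.2 and 19.5 CPM in theirs, a difference of -1.78 ± 0.22 (SE, edgeR adjusted p = 0.00014). These are 2 of 7 measured neutrophil markers, a list that fell in 3 and rose in 1 member of the Vhl/Hif1a effect, with a median difference of -0.43. S100a8 went the other way, with 6.03 to 7.86 CPM in Vhl/Hif1a knockout and 2.20 to 3.92 CPM in control libraries. It had 4.05 to 4.28 CPM in triple knockout and 2.79 to 3.85 CPM in triple control libraries. All 14 markers of the list summed to 77.5 to 88.6 CPM in Vhl/Hif1a knockout, 156 to 166 CPM in control, 151 to 175 CPM in triple knockout and 137 to 147 CPM in triple control libraries, and the granule and surface genes Elane, Mpo and Ly6g were at 0 in all 12. Most of the sum came from Csf3r and Mmp8, the latter at 35.1 to 43.0 CPM in Vhl/Hif1a knockout and 62.2 to 72.0 CPM in control libraries. The part of neutrophil RNA in these differences was not tested.

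Among the other lowest genes Fam167a differed by -2.43 ± 0.38, with 2.10, 1.01 and 1.06 CPM in Vhl/Hif1a knockout libraries, against 6.29, 8.11 and 5.32 CPM in controls, and 7.20, 7.45 and 5.18 CPM in triple knockout libraries, against 5.17, 7.82 and 4.39 CPM in theirs. Spsb1, which encodes a substrate receptor of a ubiquitin ligase, differed by -2.09 ± 0.34, the beta-defensin-like gene Spag11b by -2.10 ± 0.40, and Ece1, the endothelin-converting enzyme gene, by -1.64 ± 0.31. Ece1 had 1.77, 1.79 and 1.88 CPM in Vhl/Hif1a knockout libraries, below each of the other 9 at 6.30 to 15.8 CPM. With triple control 2, Vhl/Hif1a knockout 3 and Vhl/Hif1a control 3 left out, Spag11b and Ece1 did not pass (edgeR adjusted p = 0.0557 and 0.0758). The lectin-like receptor gene Clec1a (-1.66 ± 0.38) held in 4 of 12 fits without 1 library, those without Vhl/Hif1a knockout 1 or triple control 1, 2 or 3 (at most 0.0925). The scaffold gene Ksr2 (-1.60 ± 0.39) held in 1, that without triple control 3 (at most 0.122).

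Other lower genes came from several lists, each with 1 or 2 lower members. Lyz2, the lysozyme gene, had 12526, 11613 and 12754 CPM in Vhl/Hif1a knockout libraries, against 19366, 18278 and 17828 CPM in controls, and 19234, 18511 and 17469 CPM in triple knockout libraries, against 18266, 17497 and 17831 CPM in theirs. The Vhl/Hif1a knockout libraries were the lowest 3, a difference of -0.63 ± 0.10 (SE, edgeR adjusted p = 0.00139). Clec4n, the gene of the fungal receptor dectin-2, differed by -0.68 ± 0.13, and the apoptotic cell receptor gene Mertk by -0.46 ± 0.11 (edgeR adjusted p = 0.0495). Mertk held in 1 of 12 fits without 1 library, that without triple control 3 (at most 0.162). Of 29 inflammatory genes 1 was called, the interleukin-1 receptor antagonist gene Il1rn (-0.69 ± 0.15), lost without Vhl/Hif1a knockout 3, Vhl/Hif1a control 2 or 3, or triple knockout 2 or 3 (at most 0.0765). Of 16 costimulatory genes 1 was called, Lgals9 (-0.73 ± 0.16), lost without Vhl/Hif1a knockout 3, Vhl/Hif1a control 3 or triple knockout 2 (at most 0.0674). Spp1, the osteopontin gene, differed by -0.63 ± 0.15 and held in 4 of 12 fits, those without Vhl/Hif1a knockout 3, Vhl/Hif1a control 3 or triple control 1 or 3 (at most 0.130). It was the 1 lower beside 1 higher of 16 genes reported elsewhere to depend on HIF-2α.

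The type I interferon response had 4 lower and 0 higher of 39, with a list median of -0.34. The antiviral gene Ifit1 had 1.05, 0.857 and 1.13 CPM in Vhl/Hif1a knockout libraries, against 2.57, 3.08 and 4.55 CPM in controls, and 7.03, 4.92 and 6.17 CPM in triple knockout libraries, against 8.19, 5.16 and 5.04 CPM in theirs, a difference of -1.72 ± 0.42 (SE, edgeR adjusted p = 0.0445). The chemokine gene Cxcl10 differed by -1.97 ± 0.47 and the guanylate-binding protein genes Gbp3 and Gbp5 by -1.01 ± 0.22 and -1.05 ± 0.23. In the Vhl/Hif1a effect itself 10 of the 39 fell and 0 rose, where 1.44% of all autosomal genes fell. Between the controls 7 were already lower in the Vhl/Hif1a cross, where 5.39% of all autosomal genes differed either way. The count depended on single libraries: 0 were called without Vhl/Hif1a knockout 2 or 3, Vhl/Hif1a control 3 or triple knockout 1, and 5 without triple control 1. With triple control 2, Vhl/Hif1a knockout 3 and Vhl/Hif1a control 3 left out, 0 were called, and Ifit1 then had an edgeR adjusted p of 0.227, Cxcl10 0.144, Gbp3 0.132 and Gbp5 0.172. Ifit1 and Cxcl10 held in 2 of 12 fits each, those without Vhl/Hif1a control 1 or triple control 1 (at most 0.131 and 0.112), and Gbp3 and Gbp5 in 7 each (at most 0.0738 and 0.0746), with Gbp3 also lost without Vhl/Hif1a control 1 and Gbp5 without triple knockout 3.

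**Figure D4:**
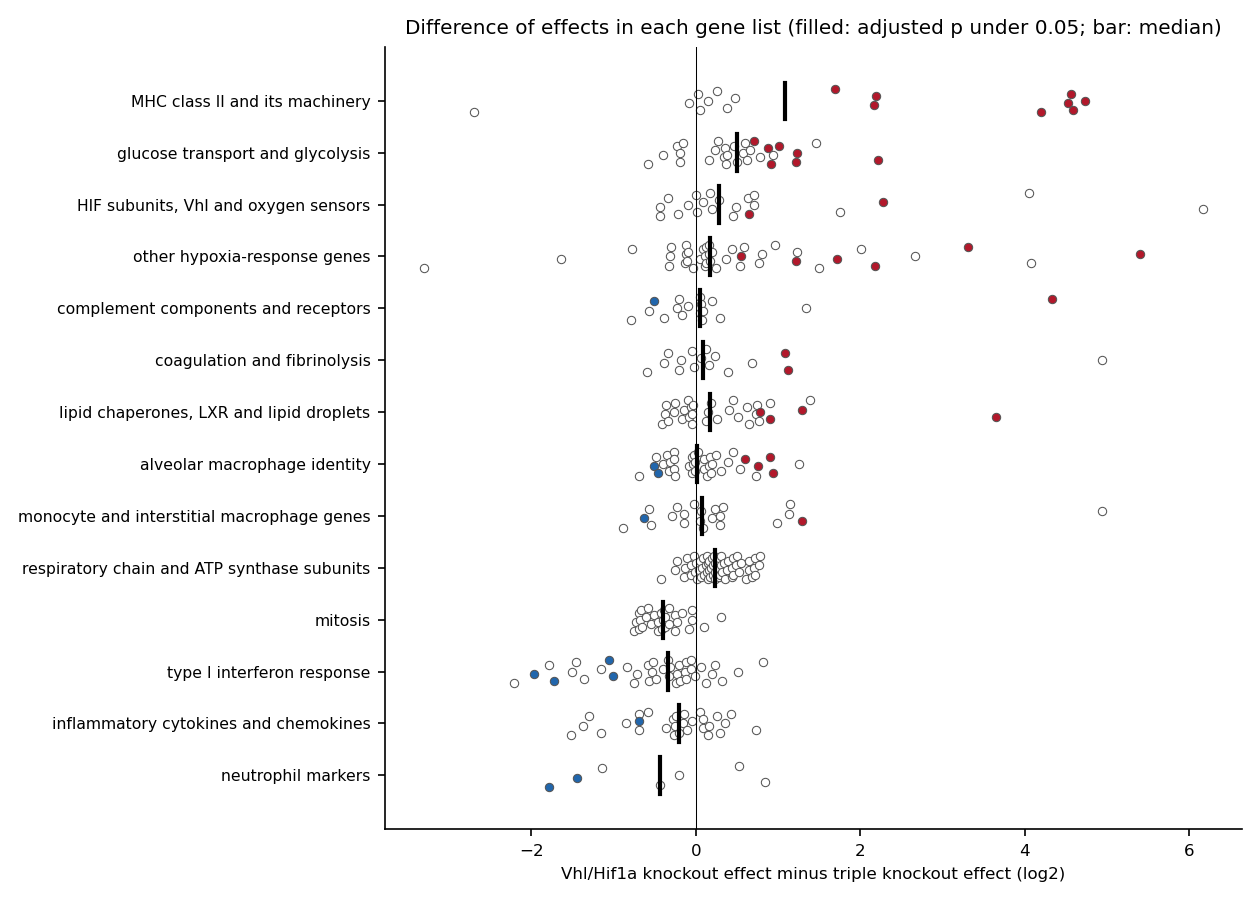
Difference of effects (Vhl/Hif1a knockout effect minus triple knockout effect, log2) for each measured member of 14 gene lists; filled points passed the test (red higher, blue lower), open points did not, and the black bar is the list's median. The 8 filled class II genes lie between 1.69 and 4.74, and the respiratory chain list has no filled point around its median of 0.23.

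The alveolar macrophage identity list had 4 higher and 2 lower of 38, with a median difference of 0.01. The higher ones were Slc7a2, the transferrin gene Trf (0.76 ± 0.12), the cathepsin K gene Ctsk (0.60 ± 0.12) and Fabp4, and the lower ones Itgax and Mertk. Trf had 3355, 3471 and 3707 CPM in Vhl/Hif1a knockout libraries, against 2077, 2104 and 2308 CPM in controls, and 1805, 1937 and 1837 CPM in triple knockout libraries, against 1809, 2052 and 1943 CPM in theirs. Siglecf fell by 0.34 in Vhl/Hif1a knockout cells and had -0.02 in triple knockout cells, and that difference did not pass (edgeR adjusted p = 0.229). Monocyte and interstitial macrophage genes had 1 higher, Apoe, and 1 lower, Lyz2, of 22, scavenger receptors 2 lower of 17 (Clec4n and Mertk), and lysosomal genes 1 higher of 39 (Ctsk).

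In 3 of the 67 lower genes the triple effect passed the test. Itgax, the gene of CD11c, on which cells were selected and whose promoter names the Cre line, had 1521, 1650.5 and 1601 CPM in Vhl/Hif1a knockout libraries, against 1487, 1457 and 1362 CPM in controls. It had 2101, 2213 and 2133 CPM in triple knockout libraries, against 1352, 1370.0 and 1369 CPM in theirs. The knockout libraries lay above their controls in both crosses. The effect was 0.15 (edgeR adjusted p = 0.309) in the Vhl/Hif1a cross and 0.66 (6.8e-05) in the triple cross, a difference of -0.51 ± 0.09 (0.00531). Pagr1a (chromosome 7, 127015033 to 127017352) had 3.49, 4.36 and 2.19 CPM in Vhl/Hif1a knockout libraries, against 3.71, 8.59 and 7.02 CPM in controls, and 21.1, 12.1 and 10.6 CPM in triple knockout libraries, against 2.96, 2.87 and 2.29 CPM in theirs, a difference of -3.37 ± 0.56 (SE, edgeR adjusted p = 0.00247). Plcb4, a phospholipase C gene (chromosome 2, 135659011 to 136014593), had 20.9, 20.6 and 21.8 CPM in Vhl/Hif1a knockout libraries, against 0.464, 0.529 and 1.70 CPM in controls, and 30.5, 24.8 and 30.8 CPM in triple knockout libraries, against 0.263, 0.166 and 0.305 CPM in theirs. It rose by 4.52 in the Vhl/Hif1a cross and by 6.83 in the triple cross, and in libraries labelled Vhl/Hif2a knockout it had 12.6, 15.1 and 16.3 CPM, against 0.920, 0.811 and 0.372 CPM in their controls. Its difference of -2.31 ± 0.53 held in 4 of 12 fits without 1 library, those without Vhl/Hif1a control 1 or 2, triple knockout 2 or triple control 3 (at most 0.134), and with triple control 2, Vhl/Hif1a knockout 3 and Vhl/Hif1a control 3 left out it was -1.27 (0.324). Compared directly, the knockouts were not shown to differ in Plcb4 (-0.44, edgeR adjusted p = 0.244), while the controls differed by 1.87 (0.0340). Those controls were low, with 67 summed counts in the Vhl/Hif1a cross and 20 in the triple cross. Itgam (chromosome 7, 128062640 to 128118491), the CD11b gene next to Itgax (128129547 to 128150657), rose alike in both crosses, by 1.34 in Vhl/Hif1a knockout and 1.25 in triple knockout cells, with a difference of 0.09 ± 0.29 (edgeR adjusted p = 0.880).

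No member was called in 9 lists of metabolism, growth and stress genes, beside 2.04% of all autosomal genes. At that share, lists of this size would hold few called genes or none, so little can be read from a count of 0. The same holds for a count of 1 or 2 in the lists above. The 64 respiratory chain genes had a median difference of 0.23, the 35 tricarboxylic acid cycle and fatty acid oxidation genes 0.02, the 17 iron genes 0.05, the 22 cholesterol genes -0.08, the 52 ribosomal protein genes 0.31, the 30 mitosis genes -0.40, the 33 replication genes -0.27, the 24 amino acid stress genes 0.05 and the 24 dissociation genes 0.26. In the Vhl/Hif1a effect 5 of the 30 mitosis genes fell and 0 rose, where 1.44% of all autosomal genes fell. The difference of effects was lower for 4 mitosis genes without triple control 3, for 1 without triple control 1, for 2 by DESeq2's Wald test and for 1 with the 3 libraries named above left out. The lists of T and NK cells, eosinophils and mast cells, endothelium and fibroblasts, and erythrocytes had no called member either, with 1 to 3 measured members each. The collagen genes Col1a1, Col1a2 and Col3a1 of the fibroblast list did not pass the filter. They reached 7.44, 5.37 and 7.09 CPM in the Vhl/Hif1a control group. In the other groups of the Vhl/Hif1a and triple crosses they reached at most 0.0648 CPM. The part of fibroblast RNA was not tested.

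Some of the largest differences did not pass the test. Egln3, the prolyl hydroxylase gene (chromosome 12, 54178981 to 54203860), had 391, 548 and 515 CPM in Vhl/Hif1a knockout libraries, against 0.464, 0.617 and 32.5 CPM in controls, and 0.206, 0.162 and 0.428 CPM in triple knockout libraries, against 0.724, 0.374 and 0.191 CPM in theirs. The Vhl/Hif1a groups did not overlap, but control 3 was far above the other 2, and the difference of 6.17 ± 2.78 had an edgeR adjusted p of 0.283. Arg1, the arginase gene, had 28.2, 59.2 and 78.0 CPM in Vhl/Hif1a knockout libraries, against 0.844, 0.132 and 3.43 CPM in controls, and at most 0.395 CPM in the 6 libraries of the triple cross (difference 5.20 ± 1.44, edgeR adjusted p = 0.0828). F13a1, the coagulation factor XIII subunit gene, had 6.38, 9.05 and 14.7 CPM in Vhl/Hif1a knockout libraries and at most 0.694 CPM in the other 9 (difference 4.94 ± 1.80, edgeR adjusted p = 0.207). Summed counts in triple knockout and triple control libraries were 23 and 36 for Egln3, 28 and 26 for Arg1, and 7 and 5 for F13a1. Egln3, Arg1 and F13a1 all rose in the Vhl/Hif1a effect (edgeR adjusted p = 0.00326, 8.3e-05 and 0.0002). With triple control 2, Vhl/Hif1a knockout 3 and Vhl/Hif1a control 3 left out, the adjusted p of the difference was 0.0549 for Egln3, 0.0400 for Arg1 and 0.0750 for F13a1.

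The Vhl/Hif1a effect was also set against the Vhl/Hif2a effect, from a cross whose labels do not name Hif1a but whose knockout libraries had few Hif1a transcripts. Both comparisons share the Vhl/Hif1a libraries, so values are given side by side only. The effects of the 2 double knockouts differed for 307 genes (2.46%), 103 higher and 204 lower in the Vhl/Hif1a cross. Of the 187 genes with a higher effect than in the triple cross, 28 were also higher here, 20 were lower and 139 were not called. Of the 67 with a lower effect, 11 were also lower here, 3 were higher and 53 were not called. Among class II genes 8 of 16 were higher and 0 lower, among glycolysis genes 0 of 29 were higher and 19 lower, and among other hypoxia-response genes 0 of 41 were higher and 19 lower. Ciita had 3.97, 5.81 and 6.22 CPM in libraries labelled Vhl/Hif2a knockout, against 7.16, 11.9 and 12.4 CPM in their controls, and H2-Ab1 had 109, 108 and 152 CPM, against 72.4, 165 and 161 CPM. The differences from the Vhl/Hif1a effect were 4.56 ± 0.41 for Ciita and 3.91 ± 0.49 for H2-Ab1 (edgeR adjusted p = 3.4e-06 and 0.00013). C3ar1 had 2.68, 3.73 and 2.96 CPM in libraries labelled Vhl/Hif2a knockout, against 1.64, 2.24 and 0.697 CPM in controls, and differed by 3.19 ± 0.52 (edgeR adjusted p = 0.00186).

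Hypoxia genes had another order. Slc2a1 had 351, 381 and 386 CPM in libraries labelled Vhl/Hif2a knockout, against 35.3, 21.2 and 20.4 CPM in controls, higher than in the Vhl/Hif1a knockout libraries, and its Vhl/Hif1a effect was below its Vhl/Hif2a effect by 2.15 (edgeR adjusted p = 8.3e-05). Bnip3 had 580.3, 553 and 556 CPM, against 37.7, 26.2 and 21.7 CPM, and was below by 1.91 (edgeR adjusted p = 0.00011). Ankrd37 had 11.4, 12 and 9.80 CPM, against 0.460, 0.193 and 0.232 CPM, with a difference of -1.13 ± 0.61 that did not pass (edgeR adjusted p = 0.591). Csf3r had 39.2, 31.0 and 33.6 CPM in libraries labelled Vhl/Hif2a knockout, against 64.0, 71.7 and 82.2 CPM in controls, Cxcr2 4.17, 3.79 and 3.32 CPM, against 13.7, 11.4 and 13.9 CPM, and Lyz2 11890.1, 11636 and 13622 CPM, against 19565, 20263 and 20403 CPM. Both double knockouts thus had low values of these 3 genes, while the triple knockout overlapped its controls for Csf3r and Lyz2 and lay above them for Cxcr2. Between the double knockouts their differences were -0.30 ± 0.16, 0.34 ± 0.23 and 0.11 ± 0.10, and none passed the test.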

How the data were processed

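Bulk polyA RNA of alveolar macrophages was sequenced in 18 libraries, 3 in each of 6 groups, and groups were taken from the labels. The authors deposited expected counts (estimated reads per gene), a unit read from the values, of which 89.251% were whole. Per the submitters' processing notes, reads passed FastQC and cutadapt and were aligned to GRCm38 with STAR. The counting tool, its strand setting and the annotation are each not given in the sources used, so reads of overlapping or antisense genes, and of near-identical gene copies, may be split in ways that cannot be told.

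These expected counts were rounded, because the values turned out to have decimals where whole counts had been assumed. Genes were filtered with filterByExpr of edgeR (minimum count 10), which left 12900 genes, 12471 of them autosomal by GENCODE M21. CPM values used library sizes scaled by TMM. edgeR's quasi-likelihood fit had a mean for each of the 6 groups and used all 18 libraries, which gave them 1 shared estimate of the spread, and p-values were adjusted over all 12900 genes (Benjamini-Hochberg, threshold 0.05). Errors of log2 values are standard errors taken from the F statistic, which is approximate. Versions were 4.0.16 of edgeR, 1.42.0 of DESeq2 and 4.3.3 of R, and the fit was tested on simulated data. Precision at low counts is limited by counting error, and reads carry no molecular identifiers.

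Named genes were the targeted genes, the 12 highest and the 12 lowest differences among called autosomal genes with a mean of at least 1 CPM (predicted models left out), and up to 8 called members of each of 37 gene lists. Members and lists were chosen with earlier results of these data known. Alternatives were DESeq2 size factors in the same edgeR fit, a DESeq2 Wald test, filters on low counts, a fit to 12 libraries, a replicate block and leaving out each library. Leaving out the 3 libraries that stand apart was chosen after seeing the data. Some list members that enter the counts are not reported here by name.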

Additional observations from a re-analysis of the deposited data

Results flagged for a closer look

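The knockout effect differed between the crosses for 254 autosomal genes, by the test of the difference itself (edgeR, adjusted p under 0.05). Among called genes with a mean of at least 1 CPM and without predicted gene models, the largest positive differences on the log2 scale, Vhl/Hif1a effect minus triple effect, were 5.40 for Ankrd37, 4.74 for H2-Ab1, 4.65 for Abcb4, 4.61 for Btnl4, 4.59 for H2-Aa, 4.56 for Cd74, 4.52 for H2-Eb1, 4.33 for C3ar1, 4.20 for Ciita, 4.04 for Basp1, 3.86 for Bok and 3.66 for Plin4. The largest negative ones were -3.37 for Pagr1a, -2.43 for Fam167a, -2.31 for Plcb4, -2.10 for Spag11b, -2.09 for Spsb1, -1.97 for Cxcl10, -1.78 for Cxcr2, -1.72 for Ifit1, -1.66 for Clec1a, -1.64 for Ece1, -1.60 for Ksr2 and -1.44 for Csf3r.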

How the results depend on the processing

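The alternatives were read for 63 of the called genes that the text names, those named by rule and the list members. Spsb4 and the genes given under other observations were not followed through them. The 63 kept their direction in every alternative run. Of them 41 stayed past the threshold in all 12 fits without 1 library, and 37 in the 7 other alternatives planned. Without 1 library the counts ranged from 157 to 393 for the difference of effects (higher genes 125 to 285, lower genes 29 to 108), 266 to 839 for the Vhl/Hif1a effect, 3 to 5 for the triple effect, 197 to 1154 between the controls, 977 to 3000 between the knockouts and 227 to 490 between the double knockouts. The counts of 839, 3000 and 490 came without triple control 2, and 197 came without Vhl/Hif1a control 2. DESeq2's Wald test called 458 genes, among them all 254, with 324 higher and 134 lower, 13 in the triple effect, 1248 between the controls and 472 between the double knockouts. A fit to the 12 libraries of the 2 crosses called 42 lower genes, where the Vhl/Hif2a comparison could not be computed.

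Whether replicate numbers pair the libraries cannot be told from 3 libraries a group. Deviations of knockout and control with the same number correlated at -0.056, 0.085 and -0.070 in the Vhl/Hif1a cross, and at 0.123, -0.042 and -0.126 in the triple cross. Vhl/Hif1a knockout 2 and triple knockout 1 correlated best with the control of their own number. With a replicate block within each cross 146 genes were called (121 higher and 25 lower), 302 in the Vhl/Hif1a effect, 267 between the controls and 190 between the double knockouts. With a block over all groups 206 were called.

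Leaving out the 3 libraries that stand apart, chosen after seeing the data, gave 189 genes, 3 in the triple effect and 291 between the controls. Besides genes so described above, Cited4, H2-Oa, Lgals9, Il1rn, Clec1a, Ksr2, Apoe, Fabp4, Ctsk, Mertk and Hopx then missed the threshold, with edgeR adjusted p from 0.0541 for Clec1a to 0.228 for Apoe. The cause of these changes was not tested. With 3 libraries a group, differences as large as 6.17 for Egln3 did not pass.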

Other observations

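Called genes outside the lists, chosen here after their values were seen, are given as values. Gsn, the actin-severing gelsolin gene, had 819, 983 and 1121 CPM in Vhl/Hif1a knockout libraries, against 126, 118 and 198 CPM in controls, and 116, 112 and 119 CPM in triple knockout libraries, against 136, 203 and 122 CPM in theirs, a difference of 3.13 ± 0.27 (SE, edgeR adjusted p = 8e-06). The caveolin gene Cav1 had 353, 409.9 and 403 CPM in Vhl/Hif1a knockout libraries, against 56.9, 54.6 and 80.1 CPM in controls, and 58.2, 61.6 and 62.0 CPM in triple knockout libraries, against 69.9, 35.3 and 66.2 CPM in theirs, a difference of 2.52 ± 0.31. Arrb1, which encodes beta-arrestin 1, differed by 3.01 ± 0.21. Nt5e, whose product CD73 makes adenosine from AMP, differed by 1.83 ± 0.25, and the adenosine receptor gene Adora2b by 1.81 ± 0.41. Fcgr2b, the inhibitory receptor for immunoglobulin G, differed by 1.61 ± 0.22, with 966, 1065 and 882 CPM in Vhl/Hif1a knockout libraries, against 303, 284 and 388 CPM in controls, and 189.6, 181 and 181 CPM in triple knockout libraries, against 202, 154 and 206 CPM in theirs.

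Some lower genes were chosen in the same way. Siglece, an inhibitory sialic acid receptor gene, had 29.7, 24.7 and 27.2 CPM in Vhl/Hif1a knockout libraries, against 62.9, 64.4 and 67.7 CPM in controls, and 45.1, 50.2 and 43.2 CPM in triple knockout libraries, against 42.3, 51.3 and 50.8 CPM in theirs, a difference of -1.20 ± 0.15 (SE, edgeR adjusted p = 0.00015). Klrb1b differed by -1.31 ± 0.20, Cd300lb by -1.06 ± 0.21, Cd300ld by -0.99 ± 0.19, Pilrb1 by -0.93 ± 0.21 and the formyl peptide receptor gene Fpr2 by -0.78 ± 0.15.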
